A study of Mus musculus with 3 samples.

Results

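The heterotrimeric G proteins and the regulators of G protein signalling (RGS) are a set of 51 genes measured among 18121 protein-coding genes in cortical neurons. They were chosen by symbol: genes whose names begin with Gna, with Gng or Rgs and a number, and Gnb1 to Gnb5. Of 53 symbols that met the rule, Gnat3 and Rgs21 were not analysed here, and 1 alpha subunit gene of the Gs family is left out by the rule, so each share given for the alpha class leaves it out. The class sizes were 14 alpha, 5 beta, 10 gamma and 22 RGS or RGS-binding genes. The libraries come from cultures of wild-type cortical neurons of embryonic day 16 Swiss-Webster mice, an outbred stock, kept in neurobasal medium with B27. The 3 libraries form 1 group with no treatment by their labels, and the growth text also describes the topoisomerase poison etoposide. Separate cultures or litters are not named for them, so the spread between libraries may be technical. The study's title concerns TOP2B, a topoisomerase, and these libraries give transcript levels without a second group, so all comparisons are between genes within libraries.

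A receptor at the plasma membrane acts on a heterotrimeric G protein, which is made of an alpha subunit that binds guanine nucleotides and a tightly bound beta and gamma pair. The receptor makes the alpha subunit exchange GDP for GTP, and the alpha subunit and the beta-gamma pair then act on enzymes and ion channels. RGS proteins speed up the hydrolysis of GTP by alpha subunits and so shorten the signal. In neurons the Gi and Go classes carry much of the inhibitory signalling of neurotransmitters, including opening of potassium channels and closing of calcium channels by the beta-gamma pair.

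Levels are in TPM, the usual unit of transcript abundance, a share of reads scaled by transcript length. A gene's level is that of its longest protein-coding transcript in the deposited table, its main row, and means are given ± SD over libraries (n = 3). Reads are counted again in each transcript row that they overlap, so a row's level is not that of an isoform. The values sum to 1000000 over all rows of a library, and the main rows of all protein-coding genes came to 220934 TPM. A level here is thus lower than a TPM scaled over genes would be. A gene with a mean of at least 1 TPM is called detected. Of the 51 members 37 were detected, where 61.5% of all protein-coding genes were. At a mean of at least 10 TPM there were 26 members, where the share of all genes was 26.4%. Only Gnb1, Gnao1 and Gng2 had a mean of at least 100 TPM, a level that 1.58% of all genes reached. The other detected members were 11 genes between 1 and 10 TPM, and 14 members were below 1 TPM, 8 of them below 0.1. Of all 18121 protein-coding genes, 6973 were below 1 TPM and 4411 below 0.1. The median of log2(mean TPM + 1) over the members was 3.51 ± 0.08 (SD of the 3 library medians), beside 1.94 over all protein-coding genes.

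The RGS class had the lowest median level of the classes, which is a description and not a test. The median on that log2 scale was 4.67 ± 0.04 for alpha, 4.61 ± 0.11 for beta, 4.45 ± 0.05 for gamma and 2.46 ± 0.03 for RGS genes. By main rows the alpha, beta and gamma medians lay close together and the RGS median lay below them. With the sum over rows the medians were 5.41, 6.95, 6.08 and 4.85, so the RGS median was still the lowest, but nearer to alpha, and the other classes were farther apart. Summed over members by main rows, the alpha class came to 503 ± 21.7 TPM and the beta class to 349 ± 35.5 TPM. The gamma class came to 415 ± 31.8 TPM and the RGS class to 237 ± 15.1 TPM. With the sum over rows Gnb1 alone came to 1940 TPM and Gng2, the highest gamma gene, to 899 TPM. The order of the beta and gamma totals thus depends on the choice of row. Detected were 10 of 14 alpha, 4 of 5 beta, 8 of 10 gamma and 15 of 22 RGS genes. These shares were 71.4%, 80.0%, 80.0% and 68.2%, beside 61.5% of all protein-coding genes.

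**Figure D1:**
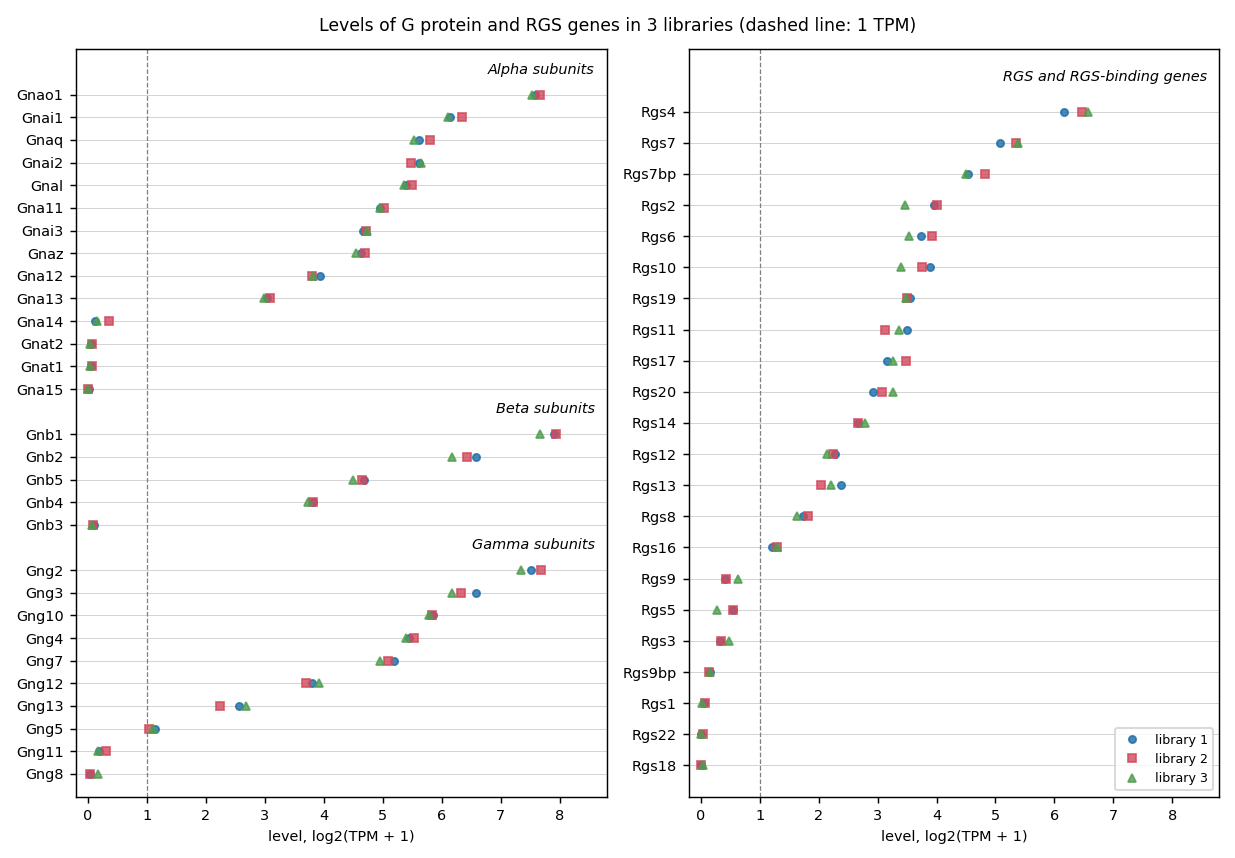
Level of each of the 51 members as log2(TPM + 1) on the x axis, 1 point per library, ordered by mean within each class on the y axis. Gnao1, Gnb1 and Gng2 lead their classes, Rgs4 leads the RGS genes, and the 14 members left of the dashed line at 1 TPM lie near the left edge.

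The alpha class falls into families by effector. The Gi/o family, which inhibits adenylyl cyclase, held 71.7% ± 0.401 of the summed alpha level, and this share was 71.7%, 71.3% and 72.2% in libraries 1, 2 and 3. The Gq/11 family, which activates phospholipase C beta, held 15.9% ± 0.474. Gnal, which encodes the Golf subunit that activates adenylyl cyclase, held 8.28% ± 0.0871. The G12/13 family, which acts on exchange factors of the GTPase RhoA, held 4.10% ± 0.224. These shares are those of the main rows of the 14 measured alpha genes and depend on that choice. With the sum over rows they were 90.7% for Gi/o, 5.87% for Gq/11, 2.73% for Gnal and 0.745% for G12/13, and with the highest row they were 82.3%, 9.76%, 5.42% and 2.49%. The order of the families was the same under each choice.

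Gnao1 encodes Go, the main alpha subunit of brain membranes, and lies at chr8:93810840-93968956 (mm10, plus strand, 8 exons in its main row). Its level was 191, 203 and 185 TPM in libraries 1, 2 and 3, with a mean of 193 ± 8.93. The 3 values lay within a narrow range and above those of every other alpha gene in each library. Gnao1 made up 38.3% ± 0.171 of the summed alpha level. That share rests on the row: with the highest row of each gene it was 61.3%, and with the sum over rows it was 74.2%.

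Gnai1, Gnai2 and Gnai3 encode the Gi subunits proper. Gnai1 was at 69.2, 79.8 and 67.7 TPM in libraries 1, 2 and 3, a mean of 72.3 ± 6.57. Gnai2 was at 48.2, 43.4 and 49.2 TPM, a mean of 46.9 ± 3.09. Gnai1 lay above Gnai2 in each library, and library 2 was the highest for the first and the lowest for the second. Gnai3 was at 24.2, 25.2 and 25.5 TPM, a mean of 25.0 ± 0.684. Gnaz, whose product Gz belongs to the Gi/o family but is not modified by pertussis toxin, was at 23.8, 25.1 and 22.4 TPM, a mean of 23.8 ± 1.33. Gnai3 lay above Gnaz in each library, by little in libraries 1 and 2, and their ranges overlapped. The remaining members of the family are the transducins of rods (Gnat1) and cones (Gnat2). Gnat1 had 4, 5 and 2 reads and a mean of 0.0340 TPM, and Gnat2 had 4, 4 and 2 reads and a mean of 0.0348 TPM.

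In the Gq/11 family Gnaq was at 48.2, 54.7 and 45.1 TPM, a mean of 49.3 ± 4.90, and Gna11 at 30.1, 31.5 and 29.9 TPM, a mean of 30.5 ± 0.899. Gnaq exceeded Gna11 in each library, and library 2 was the highest for both. Gna14 was at 0.0807, 0.274 and 0.116 TPM, on 14, 40 and 18 reads, with library 2 the highest. Gna15, which is known from blood cells, had 1 read in library 1 and 0 in libraries 2 and 3, where counts of 0 allow up to 0.0354 and 0.0335 TPM (3 reads). Of the G12/13 family, Gna12 was at 14.2, 12.9 and 13.1 TPM, a mean of 13.4 ± 0.712, and Gna13 at 7.24, 7.46 and 6.90 TPM, a mean of 7.20 ± 0.280. The values of the 2 genes did not overlap. Gnal was at 40.9, 44.2 and 40.0 TPM, a mean of 41.7 ± 2.21. Golf is the main stimulatory subunit of the striatum and of olfactory neurons, and its gene was the fifth of the alpha class here, above Gna11.

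Gna11 and Gna15 are neighbours on chromosome 10 with 4.50 kb between their main rows, both on the minus strand, and Gna15 was among the lowest members. Their promoters are shown because neighbouring genes of 1 family differed this far in level. Each sequence runs from 250 bases before to 50 after the RefSeq start (RefSeq, GRCm38.p6, the mm10 sequence), 5′ to 3′ on the gene's strand, with each CpG in capitals. The Gna11 window is chr10:81545113-81545412 and holds 48 CpG, and the Gna15 window is chr10:81524176-81524475 and holds 6.
Gna11: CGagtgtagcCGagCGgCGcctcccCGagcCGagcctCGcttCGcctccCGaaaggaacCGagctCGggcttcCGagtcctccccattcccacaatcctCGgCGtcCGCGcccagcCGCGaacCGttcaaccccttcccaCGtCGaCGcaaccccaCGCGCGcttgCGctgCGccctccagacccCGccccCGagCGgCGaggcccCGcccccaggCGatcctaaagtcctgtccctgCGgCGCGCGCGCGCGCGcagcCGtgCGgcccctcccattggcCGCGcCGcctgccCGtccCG
Gna15: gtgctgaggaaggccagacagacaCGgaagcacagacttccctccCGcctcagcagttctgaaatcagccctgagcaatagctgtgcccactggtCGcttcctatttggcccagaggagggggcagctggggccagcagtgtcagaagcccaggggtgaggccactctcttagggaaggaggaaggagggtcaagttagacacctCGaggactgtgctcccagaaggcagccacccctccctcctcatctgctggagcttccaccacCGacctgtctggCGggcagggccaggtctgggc

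Among the beta subunits Gnb1 led, and by main rows it was the highest gene of the whole set, while Gnao1 stood above it by the highest row (507 against 313 TPM). It lies at chr4:155491361-155559269 (mm10, plus strand) and its main row has 12 exons. Its level was 239, 245 and 203 TPM, a mean of 229 ± 22.9, which placed it above 99.6% of protein-coding genes. Libraries 1 and 2 were alike and library 3 was lower. Gnb2 was at 94.7, 85.0 and 71.4 TPM, a mean of 83.7 ± 11.7, again with library 3 the lowest. Gnb1 made up 65.6% ± 1.23 of the summed beta level and Gnb2 made up 23.9% ± 1.35. With the sum over rows, 9 for Gnb1 and 15 for Gnb2, these shares were 54.0% and 42.0%. Gnb4 was at 13.1, 13.1 and 12.3 TPM, a mean of 12.8 ± 0.450. Gnb5, the divergent beta subunit that binds RGS proteins of the R7 family in place of a gamma subunit, was at 24.7, 24.1 and 21.4 TPM, a mean of 23.4 ± 1.75. Gnb3, the beta subunit of cone photoreceptors, was the only beta gene below 1 TPM, with 7, 5 and 4 reads and a mean of 0.0614 TPM.

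Gamma subunits carry the lipid anchor of the beta-gamma pair. Gng2 led them and lies at chr14:19872559-19977249 (mm10). Its level was 183, 204 and 161 TPM, a mean of 183 ± 21.7, and it made up 43.9% ± 2.61 of the summed gamma level (62.9% with the sum over rows). Gng3, a neuronal gamma gene, was at 94.9, 79.5 and 71.1 TPM, a mean of 81.9 ± 12.1. For Gng2 library 2 was the highest, for Gng3 library 1, and the 2 genes did not overlap. The row of Gng3 overlaps Bscl2 on the opposite strand over 24.2% of its length, and the highest row of Bscl2 was at 24.3 TPM. Whether the counting used strand is not given in the sources used here. Gng10 was at 56.5, 56.3 and 54.1 TPM, a mean of 55.6 ± 1.30, the smallest relative spread of the detected members. It shares 79.4% of its row with Gm20503, a protein-coding gene on the same strand. The highest row of Gm20503 was at 51.1 TPM, and reads over the shared bases cannot be told apart between these genes.

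Gng4 was at 42.7, 45.0 and 41.3 TPM, a mean of 43.0 ± 1.88. Gng7, the gamma partner of Golf in the striatum, was at 35.7, 32.9 and 30.1 TPM, a mean of 32.9 ± 2.80. Gng12 was at 12.9, 12.001 and 14.1 TPM, with an SD of 1.05. By main rows these genes kept clear of one another in each library, in the order Gng4, Gng7 and Gng12. With the sum over their 2, 6 and 7 rows the means were 57.4, 172 and 77.3 TPM, so Gng4 was then the lowest of them. Gng13, known from taste cells and retinal bipolar cells, was at 4.88, 3.70 and 5.39 TPM, a mean of 4.66 ± 0.867. Its row overlaps Chtf18 on the opposite strand over 55.5% of its length, and the highest row of Chtf18 was at 0.735 TPM. Gng5 was at 1.20, 1.05 and 1.14 TPM, a mean of 1.13 ± 0.0753, just inside the detection limit. Gng11, on 6, 9 and 5 reads, and Gng8, on 1, 1 and 5 reads, were below it.

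**Figure D2:**
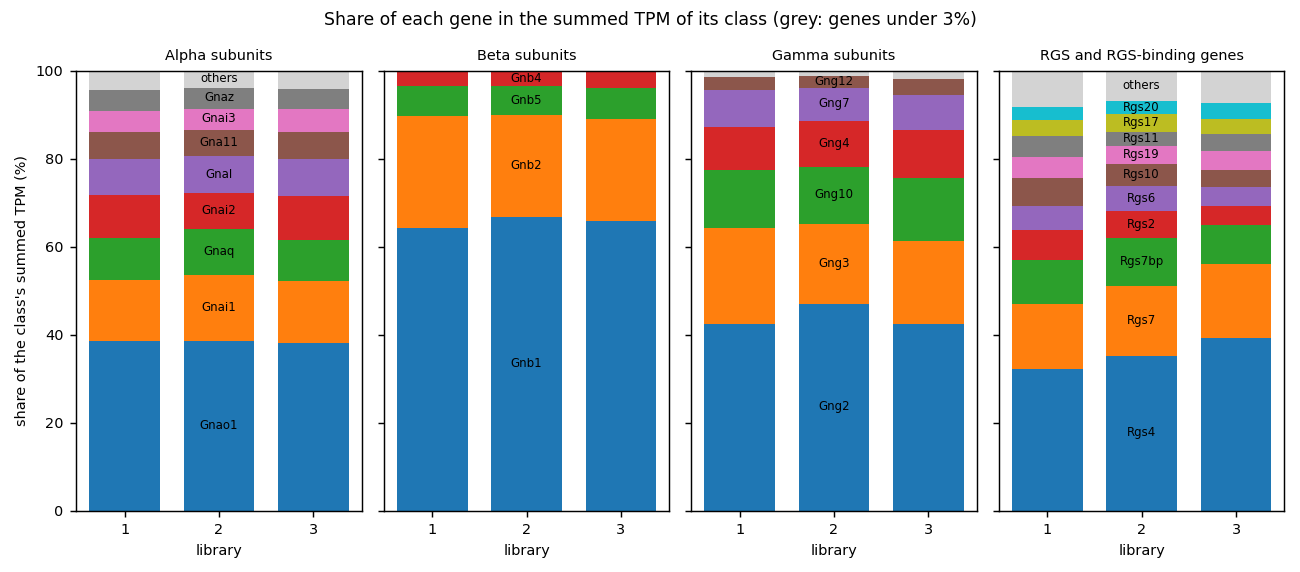
Share of each gene in the summed TPM of its class (y axis, percent) in libraries 1 to 3 (x axis), for main rows, with genes under 3% pooled in grey. Gnao1, Gnb1, Gng2 and Rgs4 are the lowest and largest blocks of their classes in each library, and the Rgs4 block is 32.1%, 35.1% and 39.1% in libraries 1, 2 and 3.

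RGS genes are grouped by the build of their proteins. The R4 family consists of small proteins with little beside the RGS domain. Of its 9 members 5 were detected (55.6%, beside 61.5% of all genes). Rgs4, a brain-rich member that acts on Gi/o and Gq subunits, lies at chr1:169741477-169747642 (mm10, minus strand, 5 exons). It was at 70.5, 87.5 and 94.3 TPM, a mean of 84.1 ± 12.2, the highest RGS gene in every library, with library 1 below the other libraries. Rgs4 made up 35.4% ± 3.55 of the summed RGS level. With the sum over rows that share was 18.1%, and Rgs7, with 24.3%, took first place. The sum counts a shared read once per row, and Rgs7 has 8 rows where Rgs4 has 3.

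Rgs2, which prefers Gq and is induced by activity in neurons, was at 14.6, 15.1 and 10.0 TPM, a mean of 13.2 ± 2.79. Library 3 was lowest for Rgs2 and highest for Rgs4, so the 2 genes lay in opposite order in libraries 2 and 3. Rgs13, known from B cells and mast cells, was at 4.19, 3.10 and 3.60 TPM, a mean of 3.63 ± 0.547, on 332, 207 and 254 reads. Rgs8 was at 2.32, 2.51 and 2.09 TPM and Rgs16 at 1.31, 1.46 and 1.45 TPM, so the pair stayed low in each library. Rgs5, a marker of pericytes, was at 0.467, 0.452 and 0.203 TPM, a mean of 0.374 ± 0.148, below the limit. Rgs3 was at 0.257, 0.266 and 0.387 TPM in its main row. Rgs1 had 7, 9 and 2 reads, and Rgs18, known from platelets, had 0, 0 and 2 reads, where the counts of 0 allow up to 0.0288 and 0.0342 TPM.

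Rgs4 and Rgs5 are neighbours on chromosome 1, on opposite strands with 45.7 kb between their rows. Their promoters are printed in the same way because the levels of these genes lie on either side of the detection limit. The Rgs4 window is chr1:169747593-169747892 (minus strand) with 13 CpG and the letters tataaa, and the Rgs5 window is chr1:169655251-169655550 (plus strand) with 6 CpG and no such letters on either strand.
Rgs4: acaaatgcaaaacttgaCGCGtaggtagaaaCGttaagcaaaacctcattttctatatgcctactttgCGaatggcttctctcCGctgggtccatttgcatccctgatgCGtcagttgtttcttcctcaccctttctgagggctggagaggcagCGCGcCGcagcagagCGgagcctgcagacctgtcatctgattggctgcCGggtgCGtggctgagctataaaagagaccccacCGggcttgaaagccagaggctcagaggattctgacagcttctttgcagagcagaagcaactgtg
Rgs5: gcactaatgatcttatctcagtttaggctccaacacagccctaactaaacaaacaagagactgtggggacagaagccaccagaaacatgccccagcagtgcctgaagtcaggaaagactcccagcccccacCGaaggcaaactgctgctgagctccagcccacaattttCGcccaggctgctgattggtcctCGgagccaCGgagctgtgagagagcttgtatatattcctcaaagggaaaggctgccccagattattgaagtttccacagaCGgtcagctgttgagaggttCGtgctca

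The R7 family (Rgs6, Rgs7, Rgs9 and Rgs11) works as a complex with Gnb5, held at the membrane by Rgs7bp or Rgs9bp or at the orphan receptors Gpr158 and Gpr179. Rgs7 was at 32.9, 39.6 and 40.6 TPM, a mean of 37.7 ± 4.21, with library 1 the lowest. Rgs6 was at 12.3, 14.2 and 10.5 TPM, a mean of 12.3 ± 1.86. Rgs11, known from retinal bipolar cells, was at 10.3, 7.71 and 9.26 TPM, a mean of 9.11 ± 1.32. Rgs7 stood above both of these in each library, and the range of Rgs6 began just above that of Rgs11. The row of Rgs11 overlaps Arhgdig on the opposite strand over 6.88% of its length, and the highest row of Arhgdig was at 56.9 TPM. Rgs9, the member of rods, cones and striatum, was at 0.327, 0.347 and 0.550 TPM in its main row, a mean of 0.408 ± 0.123. Its row with the longest coding sequence had a mean of 1.38 ± 0.276 TPM.

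The anchors of the R7 family were at unlike levels too. Rgs7bp was at 22.1, 27.3 and 21.6 TPM, a mean of 23.6 ± 3.17, close to Gnb5. Rgs9bp, the anchor of Rgs9 in photoreceptors, had 39, 29 and 33 reads and a mean of 0.109 TPM. Gpr158 was at 5.71, 8.23 and 5.89 TPM, with library 2 the highest as for Rgs7bp, and Gpr179, known from retinal bipolar cells, had a mean of 0.0585 TPM. By main rows, Rgs7, Rgs6, Rgs11, Gnb5, Rgs7bp and Gpr158 of this complex were detected and Rgs9, Rgs9bp and Gpr179 were below 1 TPM. For Rgs9 this rests on the row, since it passes 1 TPM by the highest row, the sum or the longest coding sequence.

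The R12 and RZ families have 3 members each and all were detected, beside 61.5% of all genes. In the R12 family, Rgs10, a small protein with little beside its RGS domain, was at 13.8, 12.5 and 9.48 TPM, a mean of 11.9 ± 2.21, with library 3 the lowest as for Rgs2. Rgs14, a scaffold with Ras-binding domains and a GoLoco motif, was at 5.33, 5.35 and 5.94 TPM, and Rgs12, of the same build with a PDZ domain in addition, was at 3.83, 3.72 and 3.39 TPM. The values of Rgs14 lay above those of Rgs12 in each library. The RZ family carries a string of cysteines that anchors it to membranes. Rgs19 was at 10.8, 10.3 and 10.2 TPM, Rgs17 at 7.91, 10.1 and 8.58 TPM and Rgs20 at 6.62, 7.43 and 8.64 TPM. The ranges of Rgs17 and Rgs20 overlapped, and that of Rgs19 began just above that of Rgs17. The row of Rgs20 overlaps Atp6v1h on the opposite strand over 5.98% of its length, and the highest row of Atp6v1h was at 106 TPM. Rgs22, outside these families, had 0, 5 and 1 reads, where the count of 0 allows up to 0.0146 TPM.

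The row chosen for a gene mattered most for a few members. Over the 43 members with at least 0.1 TPM, the highest row was a median of 1.05 times the main row, and for 6 it was at least 2 times. For Rgs3 the highest row, Rgs3-211 at 9.09 TPM, was 30.0 times the main row, but only 49.9% of its 50-base words occur at no other annotated locus. The main row Rgs3-201 ends upstream of it, and the row with the longest coding sequence, Rgs3-202, was at 1.30, 1.43 and 1.91 TPM. For Rgs9 the row with the longest coding sequence, Rgs9-201, was at 1.17, 1.27 and 1.69 TPM, so Rgs9 and Rgs3 pass 1 TPM by that row and by the highest row, which makes 39 detected members.

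For Gng5 the main row of 2419 bases held 149, 110 and 126 reads and the row Gng5-201 of 566 bases held 145, 105 and 118 reads. Nearly all reads of the long row thus lay within what the short row covers, and the level of the short row was 4.62 TPM, or 4.08 times that of the long one. Of the words of the short row, 69.9% were unique, with copies at 6 other loci, 5 of them pseudogenes, so reads of Gng5 may have been counted elsewhere or dropped. Gng13 showed the same pattern of reads: 180, 115 and 177 over 719 bases, and 179, 115 and 176 over the 347 bases of Gng13-201, at 9.61 TPM. Rgs20 reached 16.2 TPM in Rgs20-207, 2.14 times its main row. For Gnao1 the highest row, Gnao1-210, has 231 bases and was at 507 TPM, 2.63 times the main row, so the lead of Gnao1 in its class does not hang on this choice while its size does. All 51 main rows had at least 94.3% unique words. Genes that overlap a member counted as the same locus there, so bases shared with them do not lower this share. Gng10 thus had 100% although 79.4% of its row is shared with Gm20503.

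Related genes were compared within each library over 20 pairs taken by family, chosen with earlier results of these data known. In 19 of the 20 pairs all 3 libraries had the same sign. Some genes occur in more than 1 pair, so the pairs are not independent. With 3 libraries the two-sided exact sign-flip permutation test cannot go below p = 0.25, so no pair could pass 0.05, and the adjusted p (Benjamini-Hochberg over 20 pairs) was 0.263 for these 19 pairs. Gnao1 exceeded Gnai1 by 1.41 ± 0.06, Gnai2 by 2.02 ± 0.16 and Gnaz by 2.97 ± 0.02 as differences of log2(TPM + 1). Gnb1 exceeded Gnb2 by 1.44 ± 0.10 and Gnb4 by 4.05 ± 0.10. Gng3 was below Gng2 by -1.15 ± 0.21 on this scale, and Gng5 was below Gng10 by -4.73 ± 0.06. Gng3 exceeded Gng12 by 2.56 ± 0.27. The SD over libraries was well below each of these differences, but it does not cover the choice of row. Gnao1 minus Gnai1 was 2.80 with the highest row, 5.01 with the sum and 0.36 with the M21 length deciding the row, and for Gnai2 and Gnaz these values were 3.28, 2.72 and 0.97, and 4.29, 5.09 and 1.93. With the sum Gnb1 minus Gnb2 was 0.36, Gng3 minus Gng2 was -3.45 and Gng3 minus Gng12 was 0.08. Gng5 minus Gng10 was -3.48 with the highest row and -3.41 with the sum. The limits given above for the reads of Gng5 and Gng10 apply to that pair.

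Rgs4 exceeded Rgs2 by 2.59 ± 0.47 and Rgs8 by 4.68 ± 0.26. The difference of Rgs4 and Rgs2 had the largest SD of the 20 pairs, at 2.20, 2.46 and 3.11 in libraries 1, 2 and 3. Rgs7 exceeded Rgs6 by 1.54 ± 0.27 and Rgs9 by 4.78 ± 0.12. Gnaq exceeded Gna11 by 0.67 ± 0.10 and Gna12 exceeded Gna13 by 0.81 ± 0.08. With the sum over rows Rgs4 minus Rgs8 was 2.88, Rgs7 minus Rgs6 was 0.64, Gnaq minus Gna11 was 0.18 and Gna12 minus Gna13 was 0.36, all of the same sign but smaller. Smaller differences were those of Rgs12 minus Rgs14, at -0.49 ± 0.15, and of Rgs17 minus Rgs19, at -0.21 ± 0.19, which were 1.79 and -1.70 with the sum and -0.03 and -0.76 with the highest row. Rgs17 minus Rgs20 was 0.21 ± 0.21, above 0 in 2 of 3 libraries (exact permutation p = 0.5), so these 2 genes were not separated, and it was -0.78 with the highest row. Gnai2 was below Gnai1 at -0.61 ± 0.22 by main rows and above it at 2.29 by the sum over rows, Gnai2 having 10 rows and Gnai1 having 1.

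**Figure D3:**
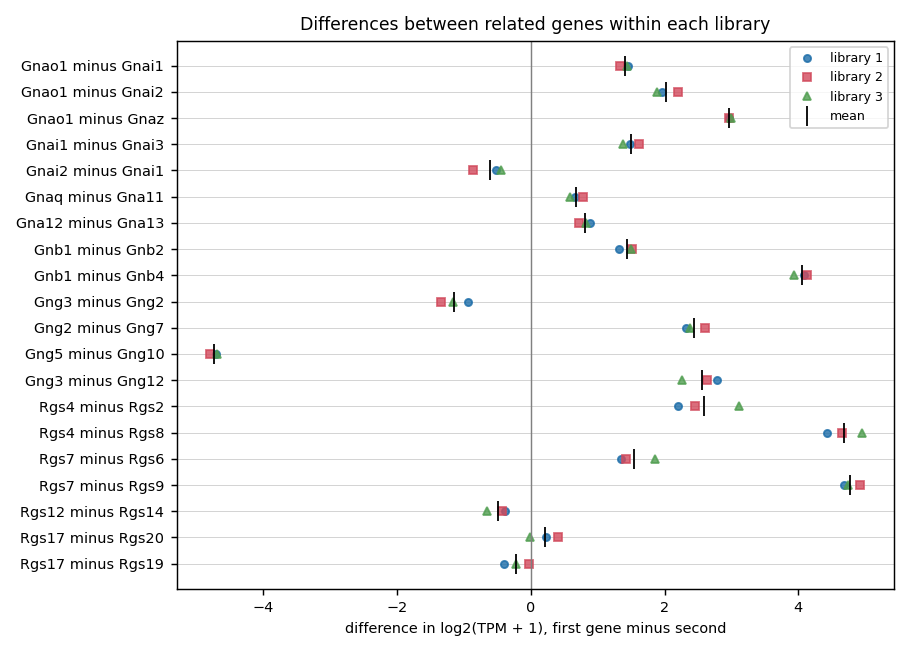
Difference in log2(TPM + 1) by main rows between the first and the second gene of each of 20 pairs (x axis). Each library has 1 point, and the mean is a vertical mark. Gng5 minus Gng10 lies farthest to the left at -4.73, the points of Rgs4 minus Rgs2 are the most spread, and those of Rgs17 minus Rgs20 fall on both sides of 0.

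Several members lie beside each other in the genome. Within 100 kb there were 8 pairs of members, and in 7 of them 1 gene was detected and the other was not, where 41.7% of the 42156 pairs of protein-coding genes up to 100 kb apart were of this kind. Pairs share genes and regions, and the pairs of members are few. Gna15 and Gna11 (4.50 kb apart) had means of 0.00331 and 30.5 TPM. Gnat2 and Gnai3 (5.85 kb) had means of 0.0348 and 25.0 TPM, and Gnat1 and Gnai2 (39.1 kb) had means of 0.0340 and 46.9 TPM. Both transducin genes thus sit beside a Gi gene that was detected. Gna14 and Gnaq (48.2 kb) had means of 0.157 and 49.3 TPM, and Rgs5 and Rgs4 (45.7 kb) had means of 0.374 and 84.1 TPM. Rgs1 and Rgs13 (65.0 kb) had means of 0.0337 and 3.63 TPM, and Rgs9 and Gna13 (64.7 kb) had means of 0.408 and 7.20 TPM. Only Rgs16 and Rgs8 (40.0 kb) were both detected, at 1.41 and 2.31 TPM. With the row of the longest coding sequence Rgs9 passes 1 TPM, and that pair then joins Rgs16 and Rgs8.

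**Figure D4:**
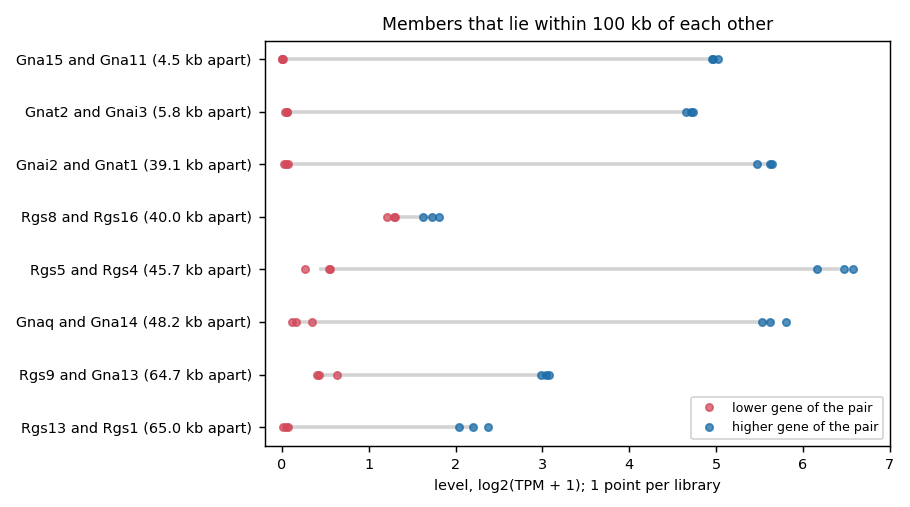
Levels as log2(TPM + 1) (x axis, 1 point per library) of the 8 pairs of members within 100 kb of each other, ordered by distance, the lower gene in red and the higher in blue. The 2 colours do not overlap in any pair, and the gap is smallest for Rgs8 and Rgs16.

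The promoters of members were described by their letters. A RefSeq window of 300 bases lay within 500 bases of the start of the main row for 35 members. The median number of CpG in it was 27 for the 28 detected members and 7 for the 7 members below 1 TPM, beside 22 and 6 for all protein-coding genes of those levels. At least 10 CpG were found in 23 of 28 detected members (82.1%, against 89.6% of all detected genes) and in 1 of 7 members below 1 TPM (14.3%, against 38.3% of all such genes). That 1 was Rgs9, with 19. The detected members with fewer than 10 CpG were Gng3 with 2, Gng7 and Gng13 with 6, Rgs7bp with 5 and Rgs13 with 0. Their mean levels ran from 3.63 TPM (Rgs13) to 81.9 TPM (Gng3), and a link between CpG and level was not tested. The members' windows held TATAAA in 3 of 35 (Rgs3, Rgs4 and Rgs9; 9.33% of 13019 genes), GGGCGG in 20 (57.2%) and TGACGTCA in 0 (2.77%), each searched on both strands. A match describes letters only.

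The RGS genes had the largest median spread between libraries of the classes. For the 37 detected members the median coefficient of variation (CV) over libraries was 8.51%, beside 7.88% for the 11148 detected protein-coding genes. By class the median was 5.31% for alpha, 8.73% for beta, 8.29% for gamma and 13.4% for RGS genes. Among members at 5 TPM or more the largest CVs were those of Rgs2 (21.1%), Rgs10 (18.5%), Rgs6 (15.1%), Gng3 (14.7%) and Rgs4 (14.6%), of which 4 are RGS genes. Counting error is small beside these: for Rgs2, on 2255, 1975 and 1385 reads, it comes to 2.31%. Of the detected members 12 were highest in library 1, 17 in library 2 and 8 in library 3, and of all detected genes 28.2%, 40.3% and 31.5% were.

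**Figure D5:**
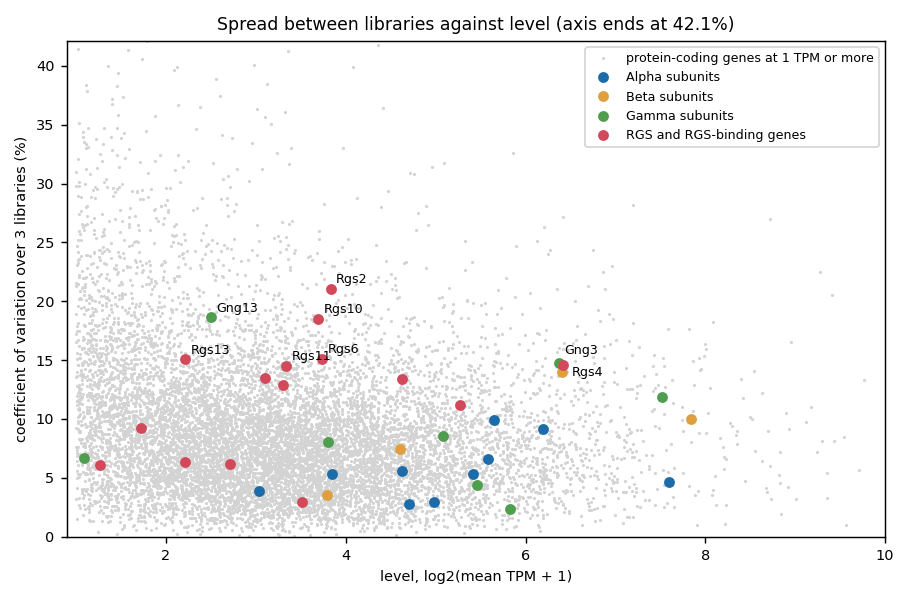
Coefficient of variation over 3 libraries (y axis, percent) against log2(mean TPM + 1) (x axis) for detected protein-coding genes in grey and members in colour by class. Rgs2 lies highest of the members at 21.1%, the alpha genes lie at or below 9.93%, and 36 of 11148 genes lie beyond the end of the axis.

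Proteins that act before or after G proteins were taken as a list of 32 partner genes, all measured. Detected were 22 of them (68.8%, beside 61.5% of all genes), 11 had at least 10 TPM (34.4%, beside 26.4%), and 0 had at least 100. Gprin1, which binds activated Go in growth cones, was the highest at 40.7, 40.4 and 36.8 TPM. Of the receptor kinases and arrestins, Grk2 had a mean of 25.6 ± 0.345 TPM, Grk6 of 15.4 ± 1.12, Arrb1 of 26.5 ± 1.84 and Arrb2 of 16.3 ± 0.525. Both arrestins and 2 of the kinases were thus above 10 TPM.

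Effectors of Gq were led by Plcb1 at 22.7 ± 2.07 TPM, above Plcb4 at 4.93 ± 0.490, Plcb3 at 2.01 ± 0.330 and Plcb2 at 0.0301 TPM. Of the potassium channel subunits opened by the beta-gamma pair, Kcnj3 had 17.6 ± 2.69 TPM, Kcnj9 had 9.81 ± 0.854, Kcnj6 had 0.815 ± 0.133 and Kcnj5 had 0.00741. Kcnj6 reached 2.68 TPM in its highest row. The RhoA exchange factors downstream of G12/13 were all detected, with Arhgef12 at 16.6 ± 2.06 TPM, Arhgef11 at 7.44 ± 0.589 and Arhgef1 at 5.08 ± 0.260. Ric8a, a chaperone of alpha subunits, had 14.5 ± 1.25 TPM and Ric8b, the chaperone of Golf, had 8.93 ± 0.486. Pcp2, a GoLoco protein of Purkinje cells, was listed at 0 in all libraries.

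Members known from other tissues were counted as lists. Of 6 measured sensory members (Gnat1, Gnat2, Gng8, Gng13, Rgs9bp and Rgs11) 2 were detected, Rgs11 and Gng13. Of 4 blood-lineage members (Gna15, Rgs1, Rgs13 and Rgs18) 1 was detected, Rgs13. Of 3 striatal members Gnal and Gng7 were detected and Rgs9 was not by its main row. Each of these counts is read beside the 61.5% of all genes.

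The label of cortical neurons was checked against markers. All 6 neuronal markers were above 10 TPM and summed to 1715 to 1932 TPM per library. Astrocyte markers were present as well, 8 of 8 detected with a sum of 427 to 522 TPM, as were 6 of 7 oligodendrocyte lineage markers with a sum of 49.7 to 82.1 TPM, in which Mog was at 0.0286 TPM. Microglial markers were at a sum of 1.19 to 2.26 TPM with Tmem119 at 0 (1 of 6 detected), endothelial markers at 0.538 to 0.805 TPM with Cldn5 at 0 (0 of 4), mural markers at 3.23 to 5.27 TPM (2 of 5) and blood markers at 0.0971 to 0.283 TPM (0 of 3). The part of glial cells in the levels of members was not tested. A lower level in bulk RNA can come from fewer cells of a type or from less RNA per cell, which cannot be told apart. Behind the main rows lay 32.4, 28.6 and 28.1 M counts in libraries 1, 2 and 3, with a read over shared bases counted in each gene it overlaps, and 1 TPM on 2 kb was worth 86.5 to 103 reads.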

How the data were processed

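Poly-A RNA of 3 libraries was prepared with a strand-specific kit, per the labels' protocols. The authors deposited TPM for each transcript, and the table is named for GENCODE M4. Per the submitters' processing notes, the tools were Trimmomatic, Bowtie, TopHat and HTSeq, without versions, on mm10. The strand and overlap settings of the counting: not given in the sources used here. Of 84660 rows 83017 matched GENCODE M21 by identifier, from which types, exons and symbols were taken, with positions from the deposited rows.

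Reads were recovered: in each library, row length times TPM came to whole multiples of 1 unit, with a tolerance of 0.01, for 99.8% of the 74441 rows whose ends are equal in both annotations. For the 51 members all values came out whole within a wider tolerance of 0.05, and 8 of these rows needed their end exons moved to the deposited ends. Reads were used for counting error, not for tests, since there is 1 group. Counts of 0 were given a limit of 3 reads, which covers counting error only.

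Log values are log2(TPM + 1). Members with values in each library were those at 10 TPM or more, the extremes of each family, the 5 largest CVs at 5 TPM or more, those whose highest row is at least 2 times the main row, the sensory and blood lists and the genes of the pairs. All others are named with their values, reads or counts. Members, lists and pairs were chosen with earlier results of these data known. The pairs were tested by an exact sign-flip permutation over libraries. Promoters were matched by symbol. Alternatives were other rows, scaling, pseudocounts, limits and leaving out libraries. Calculations ran in Python 3.11.15 with pandas 2.3.3 and numpy 2.4.6 and were tested on simulated data.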

Additional observations from a re-analysis of the deposited data

How the results depend on the processing

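In place of 37 detected members, 39 resulted with the highest row, the sum over rows or the longest coding sequence (Rgs3 and Rgs9 were gained). Scaling the libraries to nuclear protein-coding genes gave 40 (Rgs5 in addition). There were 37 at a limit of 0.5 TPM, 31 at 5 TPM and 37 without any 1 library. Of all protein-coding genes 61.5% passed by main rows, 62.9% with the highest row, 67.3% with the sum and 71.5% after scaling. The longest coding sequence gave 61.7%, and at 5 TPM 7330 of 18121 genes passed. The scaling moved the median of all genes by 1.92, the sum by 1.06 and the highest row by 0.19 on the log2 scale, and the medians of the classes moved by unlike amounts. In the order all members, alpha, beta, gamma and RGS they were 5.66, 6.87, 6.81, 6.64 and 4.49 after scaling, and 5.09, 5.41, 6.95, 6.08 and 4.85 with the sum. With detected members only they were 4.61, 5.20, 5.51, 5.27 and 3.34. With the highest row the medians of all members and of RGS genes were 3.85 and 3.13. With a pseudocount of 0.1 the medians of all members, alpha, gamma and RGS genes were 3.39, 4.61, 4.38 and 2.20. Leaving out 1 library gave 2.46 to 2.51 for the RGS median and 6.74% to 7.93% for the median CV of members. Of 160 alternative values of the 20 pair differences 4 changed sign: Rgs17 minus Rgs20 was -0.78 with the highest row and -0.75 with the sum, and with the sum Gnai2 minus Gnai1 was 2.29 and Rgs12 minus Rgs14 was 1.79. The sum counts shared reads once per row. With model lengths of M21 in the choice of rows, added after seeing the data, the level of Gnao1 was 93.1 TPM, since its row was then Gnao1-207, which is 5526 bases in M21 and 2333 in the table. No paired analysis was possible because there is 1 group of libraries. Members below about 0.1 TPM rest on few reads, and their order is not resolved at this depth.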
